A study of Schizosaccharomyces pombe with 3 samples.

Results

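The strongest peaks of histone H3 acetylated at lysine 9 (H3K9ac) in wild-type fission yeast were 175 runs of neighbouring array probes on chromosome II. A run was at least 10 consecutive probes, at most 150 bp apart, that all had a log2 ratio of 1.0 or more on the wild-type array. The ratio was that of immunoprecipitated over whole-cell extract DNA, minus the array median, so 1.0 means 2 times the median ratio. The runs held 3949 of 40901 usable probes, 9.66%, of the densely tiled stretch from array base 1000011 to array base 3049820. The same rule found 180 runs on the whole array. The wild-type values chose the runs, so their wild-type heights and widths are given as a description.

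The series compared 3 strains of Schizosaccharomyces pombe, each on 1 two-colour Agilent array with 60-base probes every 50 bp. These were wild type, alp13∆, which lacks the chromodomain protein Alp13 of a Clr6 deacetylase complex, and asf1-1, which carries a mutant form of asf1, the gene of the histone chaperone Asf1. The labels name no other allele, and describe all 3 cultures as growing exponentially in rich medium (YEA) at 30 °C, fixed with 3% paraformaldehyde at 18 °C, and sheared to 500 to 1000 bp. Cy5 carried the H3K9ac immunoprecipitate and Cy3 the whole-cell extract, both amplified by random-primed PCR. With 1 array a strain there is no replicate check, so no difference between strains was tested and an SD across probes or runs is not a replicate error. No array of total H3 was analysed here, so less histone H3 and less acetylation of it cannot be told apart. Which strain an array holds rests on its label alone, and the columns of the authors' deposited value table do not settle it, since that named for alp13∆ correlated at 0.687 with the asf1-1 array, 0.645 with the wild-type array and 0.528 with its own.

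Acetylation of H3 lysine 9 is placed by acetyltransferases such as Gcn5 and removed by histone deacetylases. In yeasts it is typically concentrated over promoters and the first nucleosomes of transcribed genes. Clr6 complexes containing Alp13 are known for deacetylating histones over the bodies of transcribed genes, and Asf1 hands H3 and H4 to other chaperones for nucleosome assembly.

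The sequences upstream of 6 genes are shown because they lie at the widest runs that contain the start of the gene they are called after. The wider run at met7 was passed over, because another protein-coding transcript covers the bases before its start. A run is called after the protein-coding gene whose annotated start is nearest to its middle. Each sequence ends at the base before the annotated start, is written 5′ to 3′ along the gene, and comes from the ASM294v3 reference. It covers 200 bases, or 197 for mdm12, where the next transcript begins. Capitals mark matches on either strand to TATAAA (the TATA box), CAGTCAC (the homolD core of ribosomal protein genes), TGACGT (the CRE core) or AAAAAAA (a poly(dA:dT) tract).
SPBC365.16: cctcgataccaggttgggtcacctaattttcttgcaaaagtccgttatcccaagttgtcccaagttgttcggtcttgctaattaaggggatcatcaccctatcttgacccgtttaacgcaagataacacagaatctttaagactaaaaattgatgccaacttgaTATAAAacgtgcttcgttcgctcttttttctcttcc
mdm12: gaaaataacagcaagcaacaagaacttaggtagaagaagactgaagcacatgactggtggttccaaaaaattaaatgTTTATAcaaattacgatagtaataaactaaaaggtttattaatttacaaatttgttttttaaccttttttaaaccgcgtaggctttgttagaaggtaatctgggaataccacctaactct
hpz1: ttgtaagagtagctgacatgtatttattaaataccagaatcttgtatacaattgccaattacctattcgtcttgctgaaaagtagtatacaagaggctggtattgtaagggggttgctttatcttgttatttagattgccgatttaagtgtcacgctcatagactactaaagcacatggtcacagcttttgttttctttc
rcr1: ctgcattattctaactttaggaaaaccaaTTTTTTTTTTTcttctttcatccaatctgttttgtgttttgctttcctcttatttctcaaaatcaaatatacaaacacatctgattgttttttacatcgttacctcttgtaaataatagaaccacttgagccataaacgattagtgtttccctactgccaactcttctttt
SPBP4H10.12: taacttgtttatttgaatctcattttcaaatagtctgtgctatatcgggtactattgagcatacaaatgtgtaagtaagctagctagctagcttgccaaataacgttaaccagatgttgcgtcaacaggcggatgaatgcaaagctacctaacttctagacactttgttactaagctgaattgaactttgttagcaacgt
erv41: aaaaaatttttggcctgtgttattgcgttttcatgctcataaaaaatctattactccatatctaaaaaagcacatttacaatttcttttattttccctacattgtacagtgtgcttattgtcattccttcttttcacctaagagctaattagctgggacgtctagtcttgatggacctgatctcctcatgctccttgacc

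These windows are chrII:2529467-2529666 on the plus strand for SPBC365.16, chrII:1580259-1580455 on the minus strand for mdm12, and chrII:2960160-2960359 on the minus strand for hpz1. The other 3 are chrII:2829756-2829955 on the plus strand for rcr1, chrII:2895517-2895716 on the plus strand for SPBP4H10.12, and chrII:2584260-2584459 on the minus strand for erv41. SPBC365.16 has a TATAAA that begins 36 bases before the start, mdm12 has its reverse complement, and rcr1 has a run of T in which 5 overlapping matches lie. None of these letters is found in the windows of hpz1, SPBP4H10.12 and erv41. Of the 168 genes whose start lies in a run, 36.3% had a TATAAA in this window, against 34.3% of all 874 protein-coding genes of the stretch. AAAAAAA was present for 28.6% against 25.5% and TGACGT for 4.17% against 4.0%. CAGTCAC was present for 2 of the 168 genes, 1.19%, against 4.35% of all genes.

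The runs were between 510 and 4010 bp wide, with a median of 960 bp and 19 probes. Of the 175 runs, 87 had at least 20 probes and 13 had at least 40. Gaps between neighbouring runs had a median of 7115 bp, from 40 bp to 68240 bp. At the lower limit of the rule, the 12 runs of exactly 10 probes had a median wild-type mean of 1.17 (1.12 to 1.67), and the 10 excluded stretches of 9 probes a median of 1.14 (1.11 to 1.40). The rule itself puts the highest wild-type probes into runs: of the 410 probes in the top 1% of the wild-type array, at or above 1.96, 96.3% lay in runs, as did the highest probe, at 3.01. Of all 5256 probes at or above 1.0, 75.1% lay in runs.

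The runs lay largely between genes and around gene starts. Of their probes 50.2% lay outside protein-coding genes, against 22.9% of all probes of the stretch, and 61.0% lay between genes or within 500 bp upstream of a start, against 29.7%. In the 102 runs with a wild-type Cy3 median of at least 50% of the array median, 53.0% lay between genes or upstream in this sense. The part of the Cy3 level in the place of the runs was not tested. Probes within 250 bp of a start made up 38.2% of run probes and 20.1% of all probes, and those over 1000 bp from any start 12.5% and 34.3%. The middle of a run was a median of 326.5 bp from the nearest start, against 691.5 bp for all probes of the stretch. In 117 runs it was within 500 bp. In all 125 runs contained a start: 89 held 1 start, 30 held 2, and 6 held 3 or more. A wider run can hold a start more easily, and other stretches of the same widths were not counted. These counts of runs are therefore a description. The body of a gene beyond its first 500 bp was the class least represented, with 18.1% of run probes against 56.1% of all probes.

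Of the 664 intergenic regions of the stretch 160 (24.1%) overlapped a run, most often those from which both neighbours are transcribed away. A run overlapped 88 of 222 divergent regions (39.6%), 67 of 346 tandem regions (19.4%) and 5 of 96 convergent regions (5.21%), in which both genes end. These classes also differ in length, with medians of 788.5, 292.5 and 144 bp, and the share with a run went from 15% of regions under 500 bp to 64.7% of the 34 regions of 2000 bp or longer. Among regions of 1000 bp or longer, 48 of 80 divergent ones (60.0%) and 16 of 43 tandem ones (37.2%) held a run, and 2 of the 4 convergent ones. A longer region can touch a run more easily, and by share of probes in runs the order was less steep. It was 12.9% in regions under 500 bp, 18.0% from 500 bp to under 1000 bp, 30.3% from there to under 2000 bp and 20.1% at 2000 bp or longer. By orientation it was 29.9% in divergent, 14.1% in tandem and 9.25% in convergent regions, and 31.7%, 16.1% and 30.8% in those of 1000 bp or longer. Annotated long non-coding RNA genes covered 75.7% of the run probes between genes and 58.0% of all probes between genes.

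Genes of 8 lists were set beside the share of all genes with a run at their start. A run lay within 500 bp of the start of 246 of 874 genes (28.1%). This was so for 2 of 25 cytosolic ribosomal protein genes (8%), rpl8 and rps2302, and for 3 of 10 mitochondrial ribosomal protein genes, mrps17, mrpl24 and mrpl39. None of 4 glycolysis and fermentation genes, 3 histone genes and 10 cell cycle regulators had one. Among chaperone and stress genes 3 of 10 had one: mas5, which encodes a DNAJ protein, sks2, a ribosome-associated Hsp70, and cct3, a subunit of the CCT chaperonin. Of 23 mating and meiosis genes 4 had one (17.4%): mug57, byr2, gpa1 and mam1. The only listed translation factor gene, tif213, had a run at its upstream side. The lists are small, so a count of 0 among 3 or 4 genes is not a result about them, and they were drawn up with earlier results of these data known.

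**Figure D1:**
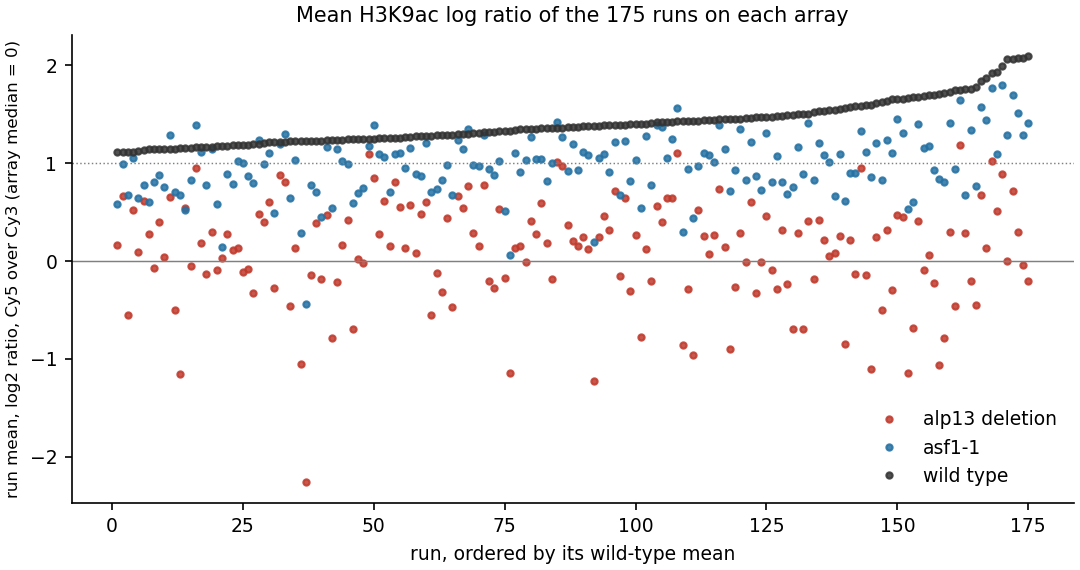
Mean log2 ratio of each of the 175 runs on the wild-type (dark grey), alp13∆ (red) and asf1-1 (blue) arrays, with runs ordered along the horizontal axis by their wild-type mean. The dotted line marks the threshold of 1.0. The asf1-1 points have a median of 1.00 and the alp13∆ points a median of 0.16, with a spread from -2.25 to 1.18.

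On the mutant arrays, which the rule did not use, the same runs had a high ratio in asf1-1 and one near the array median in alp13∆. The median run had a Cy5 level of 0.08 in asf1-1 and -0.38 in alp13∆, and a Cy3 level of -0.85 and -0.62. These levels are log2 intensities minus each array's median. With the arrays centred on probes between genes, the alp13∆ median was 0.94 and the asf1-1 median 1.01. How low alp13∆ stood thus rests on the centring. Without centring, asf1-1 was above alp13∆ in 171 of the same 175 runs, with a median difference of 0.61. With array medians as 0, the mean over the probes of a run ranged from 1.11 to 2.09 in wild type with a median of 1.37. In asf1-1 it ranged from -0.44 to 1.79 with a median of 1.00 (SD over runs 0.325). In alp13∆ it ranged from -2.25 to 1.18 with a median of 0.16 (SD over runs 0.541). Among all 4090 non-overlapping blocks of 10 probes in the stretch, the median run stood at percentile 93.3 of the asf1-1 array and percentile 56.4 of the alp13∆ array.

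Counts of runs gave the same order. The mean was at or above 1.0 for 88 runs in asf1-1, where 6.8% of blocks were, and for 5 runs in alp13∆, where 3.62% of blocks were. It was below 0 for 1 run in asf1-1 (48.7% of blocks) and for 66 runs in alp13∆ (47.8% of blocks). Every probe stayed at or above 1.0 in 13 runs in asf1-1 and in none in alp13∆, while no probe did in 33 runs and 139 runs. Blocks were not counted in this way, so these counts are a description. All counts of runs here take array medians as 0. Of the run probes 55.7% were at or above 1.0 in asf1-1 and 6.08% in alp13∆, against 7.55% and 4.54% of all probes of the stretch.

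The comparison between the mutants does not use the values of the array that chose the runs. The choice can still favour the mutant whose array is more like wild type. With runs chosen on the alp13∆ array the median of asf1-1 minus alp13∆ was -0.45, and with runs chosen on the asf1-1 array 0.68. The values that follow are for the 175 wild-type runs. The asf1-1 level was above the alp13∆ level in 174 of 175 runs, with a median difference of 0.85 ± 0.373 on the log2 scale (SD over runs, n = 175) and a range from -0.02 to 1.96. It was higher by at least 1.5-fold in 133 runs, against 24.1% of blocks, and lower by 1.5-fold in no run, against 17.5% of blocks. The median difference of the blocks was 0.13. Both the size of this difference and the number of runs that show it rest on where the arrays are centred. With each array centred on its probes between genes instead, asf1-1 was above alp13∆ in 102 of the same 175 runs, the median difference was 0.08, and 18 runs were higher and 4 lower by 1.5-fold, while the median over all probes of the stretch moved from 0.12 to -0.65.

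Against wild type, selection favours a fall, so these counts are printed and nothing is read from them. The alp13∆ level was lower by at least 1.5-fold in 160 runs and higher in none (blocks: 34.2% lower, 24.4% higher), with a median change of -1.21 ± 0.588 (SD over runs, n = 175). The asf1-1 level was lower by 1.5-fold in 46 runs and higher in none (blocks: 9.36% lower, 4.35% higher), with a median change of -0.40 ± 0.309 (SD over runs, n = 175). Centred on probes between genes, the same runs gave 30 lower and 18 higher in alp13∆ (median -0.01), and 8 lower and 1 higher in asf1-1 (median 0.03).

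**Figure D2:**
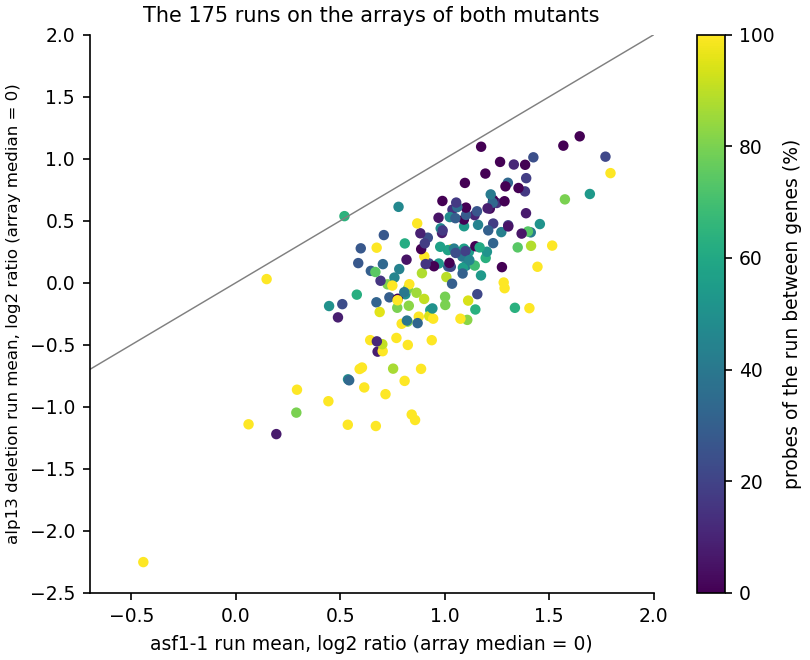
Each point is 1 of the 175 runs, with its mean log2 ratio in asf1-1 on the horizontal axis and in alp13∆ on the vertical axis, coloured by the percent of its probes that lie between genes. The line marks equal values, and 174 points lie below it with array medians as 0, against 102 with probes between genes as 0. Runs wholly between genes lie lowest in alp13∆, with a median of -0.45.

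How far a run stood in alp13∆ went with where it lay. The 36 runs wholly between genes had a median of -0.45 in alp13∆, the 47 runs mostly between genes 0.05, and the 92 others 0.40. The same groups had medians of 0.80, 1.00 and 1.07 in asf1-1, and the difference asf1-1 minus alp13∆ was 1.28, 0.97 and 0.64. Runs without a gene start stood lower in alp13∆ (-0.24, 50 runs) than runs with 1 start (0.16, 89 runs) or more (0.31, 36 runs). Across the 175 runs, the percent of probes between genes correlated with the alp13∆ level at r = -0.59 and rho = -0.60. All runs share 1 array, and the Cy3 intensity moved with the same quantity: its wild-type median was 652 in the runs wholly between genes and 1238 in those mostly inside genes, and its correlation with the alp13∆ level was r = 0.74 and rho = 0.75. In the 102 runs with a wild-type Cy3 median of at least 906, 50% of the array median, the alp13∆ median was 0.40 and the asf1-1 median 1.09. In the other 73 runs they were -0.20 and 0.84. The part of the Cy3 level in these differences was not tested.

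Against other probes of the same class, the run probes stood high on both mutant arrays. Upstream run probes had a median of 0.00 in alp13∆ where all upstream probes had -0.53, and the other intergenic run probes -0.23 where the class had -1.25. In the first 500 bp of genes the medians were 0.44 and -0.06, and further inside genes 0.65 and 0.28. In asf1-1 the run probes of these 4 classes had medians of 0.99, 0.88, 1.11 and 1.18, against 0.23, -0.48, 0.34 and -0.09 for all probes of the class. The median run probe thus stood between percentiles 77.0 and 82.6 of its class in alp13∆ and between percentiles 87.5 and 97.8 in asf1-1.

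The order of heights among the runs was kept in part by asf1-1. Across the 175 runs the wild-type mean correlated with the asf1-1 mean at r = 0.41 (rho = 0.34) and with the alp13∆ mean at r = -0.02 (rho = -0.07). Between the mutants r was 0.74 (rho = 0.69). The number of probes in a run correlated with its asf1-1 mean at r = 0.39 (rho = 0.41) and with its alp13∆ mean at r = 0.21 (rho = 0.21). In wild type, where one threshold sets both width and height, the values were r = 0.44 and rho = 0.59. Runs share their array and their probe sequences across arrays, and the wild-type range is cut off by the rule.

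**Figure D3:**
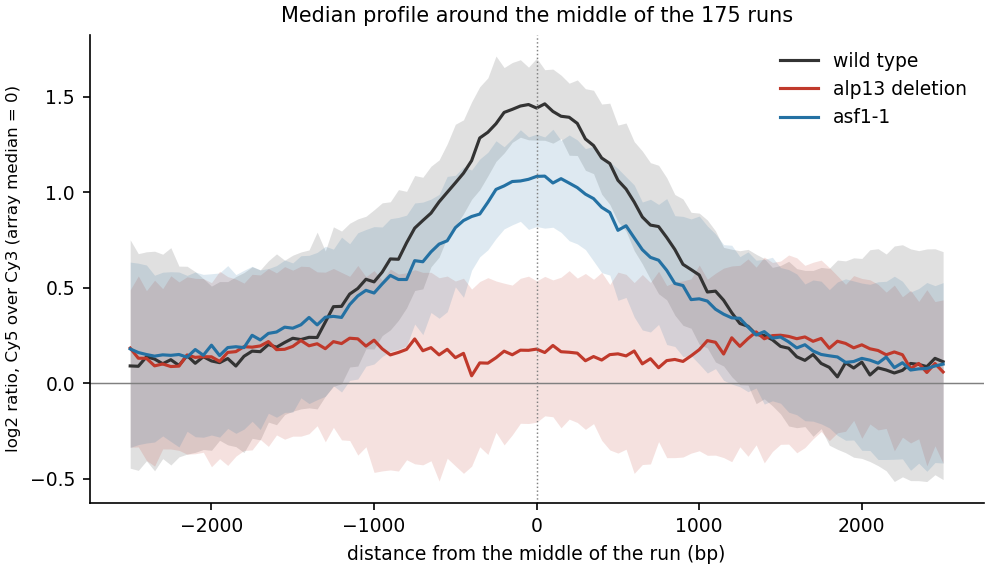
Median log2 ratio (lines) and interquartile range of the runs (shading) by distance in bp from the middle of the 175 runs, for wild type (dark grey), alp13∆ (red) and asf1-1 (blue). Wild type and asf1-1 peak at the middle, at 1.44 and 1.08, and the alp13∆ line stays between 0.04 and 0.27.

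Seen from the middle of the runs, the asf1-1 median kept a peak and the alp13∆ median had none. That median joins probe classes that differ in alp13∆ over the whole stretch. Other intergenic probes had a median of -1.25 there, and probes beyond the first 500 bp of genes 0.28. Single runs could differ: in the mat1-Mc run alp13∆ reached 1.77, with -0.09 at the probe before the run and -1.19 at the probe after it. The asf1-1 median was 1.08 at the middle and 0.47 and 0.44 at 1000 bp to the left and right, where wild type went from 1.44 to 0.53 and 0.57. The alp13∆ median was 0.18 at the middle and 0.23 and 0.18 at the same distances. Over 2500 bp on both sides it stayed between 0.04 and 0.27.

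Around the starts, the alp13∆ signal was higher inside the gene than upstream of it, as it was over the whole stretch. All upstream probes had an alp13∆ median of -0.53, those in the first 500 bp of genes -0.06, and those further inside 0.28. Starts without a run were not profiled. In the 89 runs with 1 start, the wild-type median was highest 50 bp before the start (1.37) and nearly even at 500 bp on both sides (1.08 before, 1.01 after). The asf1-1 median was highest 50 bp after it (1.01), with 0.79 at 500 bp before and 0.93 at 500 bp after. The alp13∆ median was -0.07 at 500 bp before, 0.23 at the start, 0.55 at 500 bp after and highest, 0.60, at 700 bp after. The highest point of the median profile thus lay further inside the gene in alp13∆ than in the other strains. These runs were chosen as wild-type peaks that hold the start, which favours a wild-type maximum near it. Positions of the highest signal in single runs were not compared.

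**Figure D4:**
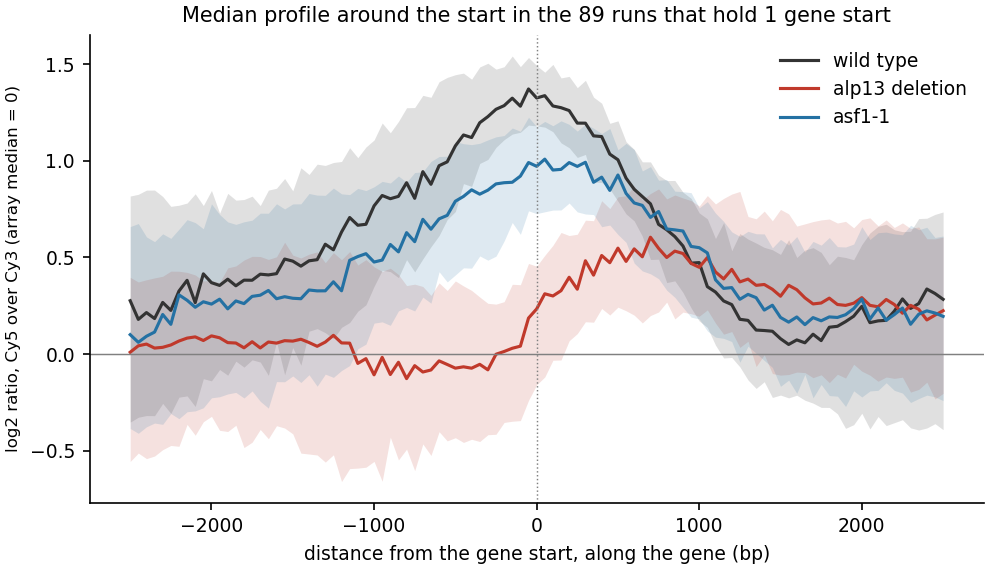
Median log2 ratio (lines) and interquartile range of the runs (shading) by distance in bp from the gene start, positive into the gene, for the 89 runs that hold exactly 1 start. Wild type (dark grey) and asf1-1 (blue) are highest within 50 bp of the start, and alp13∆ (red) is highest 700 bp inside the gene, at 0.60.

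The widest run held 79 probes, at array bases 2528011 to 2532020. It reached from the 3′ part of alp4, which encodes a γ-tubulin complex protein, into SPBC365.16. The latter is an uncharacterized gene (annotated at ASM294v3 bases 2529667 to 2532214, plus strand). Of the probes of the run 63.3% lay between genes. The mean of the run was 1.76 ± 0.36 (SD over probes, n = 79) in wild type, -0.20 ± 0.25 in alp13∆ and 1.34 ± 0.27 in asf1-1. The asf1-1 value was at or above 1.0 at 63 of these probes and nowhere under 0.81, and the alp13∆ value lay between -0.87 and 0.25. The run contains the promoter with the TATAAA shown above.

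The next widest run had 70 probes, at array bases 1579211 to 1582720, over mdm12, which encodes a subunit of the ERMES tether between mitochondria and endoplasmic reticulum. It spans the whole gene and the starts of SPBC28F2.05C and sfr1, so that 7.14% of its probes lay between genes. Its mean was 1.42 in wild type, 0.56 in alp13∆ and 1.39 in asf1-1. The asf1-1 level here was nearly that of wild type, and alp13∆ stood above its median run.

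Of the other wide runs, that over hpz1, a zinc finger gene implicated in DNA repair, had 65 probes at array bases 2960111 to 2963370 and contained 4 starts. Its means were 1.35 in wild type, 0.15 in alp13∆ and 0.91 in asf1-1. The run between isp4 and rpl26 had 63 probes at array bases 1555711 to 1558870, none of them in a protein-coding gene. The gene with the nearest start is rpl26, of the 60S ribosomal subunit, and the run lies at the 3′ side of that gene. Its means were 1.87 in wild type, 0.13 in alp13∆ and 1.44 in asf1-1. A run of 63 probes at array bases 2829411 to 2832570 covers the start of rcr1, with means of 1.54, 0.09 and 0.67 in the same order. Here asf1-1 stood below its median run.

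Runs of high wild-type level differed widely in alp13∆. The run over SPBP4H10.12, a gene for endoplasmic reticulum insertion of tail-anchored proteins, lay at array bases 2896311 to 2898920 and also contained the starts of lcf2, a long-chain fatty acid ligase gene, and rps2302. Its means were 2.06 ± 0.24 in wild type, 0.72 ± 0.35 in alp13∆ and 1.69 ± 0.29 in asf1-1 (SD over probes, n = 52). The run over erv41, a gene for a vesicle protein of the early secretory pathway, at array bases 2585611 to 2587870, had 1.84, 0.67 and 1.58. Both stayed above 0.5 in alp13∆, in contrast to the highest run of all. That run lay upstream of gyp10, a gene for a GTPase-activating protein, at array bases 1244111 to 1244920, with means of 2.09 in wild type, -0.20 in alp13∆ and 1.41 in asf1-1. Its Cy3 median was 211 in wild type, against 1811 for the array.

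Several of the highest runs lay in the same 2 long intergenic regions. Upstream of isp4, which encodes an oligopeptide transporter, the run at array bases 1554811 to 1555670 had means of 2.08 in wild type, -0.04 in alp13∆ and 1.29 in asf1-1. It is separated by 40 bp from the 63-probe run on the rpl26 side. Between rtn1, a reticulon gene, and but2 lay 3 runs. That nearest to rtn1, at array bases 1264911 to 1265820, had 2.06, 0.00 and 1.28, and that nearest to but2, at array bases 1267561 to 1268820, had 2.07, 0.30 and 1.51. Between them, array bases 1267011 to 1267520 had 1.67, -1.14 and 0.54, at a wild-type Cy3 median of 19.7, the lowest signal of the runs named here.

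The 6 runs with the highest alp13∆ means lay mostly inside genes. The highest was that over the starts of swd2, a subunit gene of the Set1 histone methyltransferase complex, and wbp4, at array bases 1784161 to 1785770, with means of 1.75 in wild type, 1.18 in alp13∆ and 1.65 in asf1-1. The run over met7, a putative folylpolyglutamate synthase gene, at array bases 1131461 to 1133920, had 1.43, 1.11 and 1.57. For dni2, which encodes a claudin-like protein, array bases 1185561 to 1186220 had 1.249, 1.10 and 1.17. In these 3 runs no probe lay between genes. The run at cyp3, a cyclophilin gene, at array bases 1104611 to 1105820, had 1.92, 1.02 and 1.77. That at bmc1, a Bin3 family gene, at array bases 2965411 to 2966670, had 1.36, 1.01 and 1.42, and that at sws1, a gene for a partner of the Srs2 helicase, at array bases 1495011 to 1496270, had 1.36, 0.97 and 1.26.

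The lowest runs in alp13∆ were narrow and mostly of low Cy3 intensity. The lowest lay upstream of SPBC18H10.05, a WD repeat gene, at array bases 1780011 to 1780720, with means of 1.23 ± 0.17 in wild type, -2.25 ± 0.22 in alp13∆ and -0.44 ± 0.17 in asf1-1 (SD over probes, n = 14). It was the only run below 0 in asf1-1. Its edges were sharp for DNA sheared to at least 500 bp: between neighbouring probes the wild-type value went from 0.55 to 1.20 on the left and from 1.07 to 0.02 on the right. Its Cy3 median was 250 in wild type and 440 in alp13∆.

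The 5 next lowest runs had alp13∆ means between -1.22 and -1.11. They were in map4, a mating agglutinin gene (array bases 2436211 to 2436920), upstream of gfa1 (2452911 to 2453420), between rtn1 and but2, between SPBC32H8.15 and utp24 (1457161 to 1457720, called after bem46) and upstream of SPBP4H10.14C (2901911 to 2902570). In asf1-1 they spread more widely, with 0.19 at map4, 0.67 at gfa1, 0.06 at bem46 and 0.86 at SPBP4H10.14C. Wild-type Cy3 was 137 at map4, 500 at gfa1, 84.2 at bem46 and 552 at SPBP4H10.14C.

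In asf1-1 the lowest runs were those upstream of SPBC18H10.05, at bem46 and map4, and 3 more. The run between any1, an arrestin-related adaptor gene, and the retrotransposon Tf2-9, at array bases 1813111 to 1813820, had means of 1.18 in wild type, 0.03 in alp13∆ and 0.15 in asf1-1. Its Cy3 was not low, at 1460, and all of its probes lay between genes. Tf2 elements are a repeated family, and whether these probes match repeated sequence was not tested. The run at mgr2 (array bases 1571911 to 1572420) had 1.22, -1.05 and 0.29, and that upstream of ubp14, a ubiquitin hydrolase gene (2642211 to 2642920), had 1.43, -0.86 and 0.29. At the other end, the highest asf1-1 means were at the mat1 side run (1.79), cyp3 (1.77), SPBP4H10.12 (1.69), swd2 (1.65), erv41 (1.58) and met7 (1.57).

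**Figure D5:**
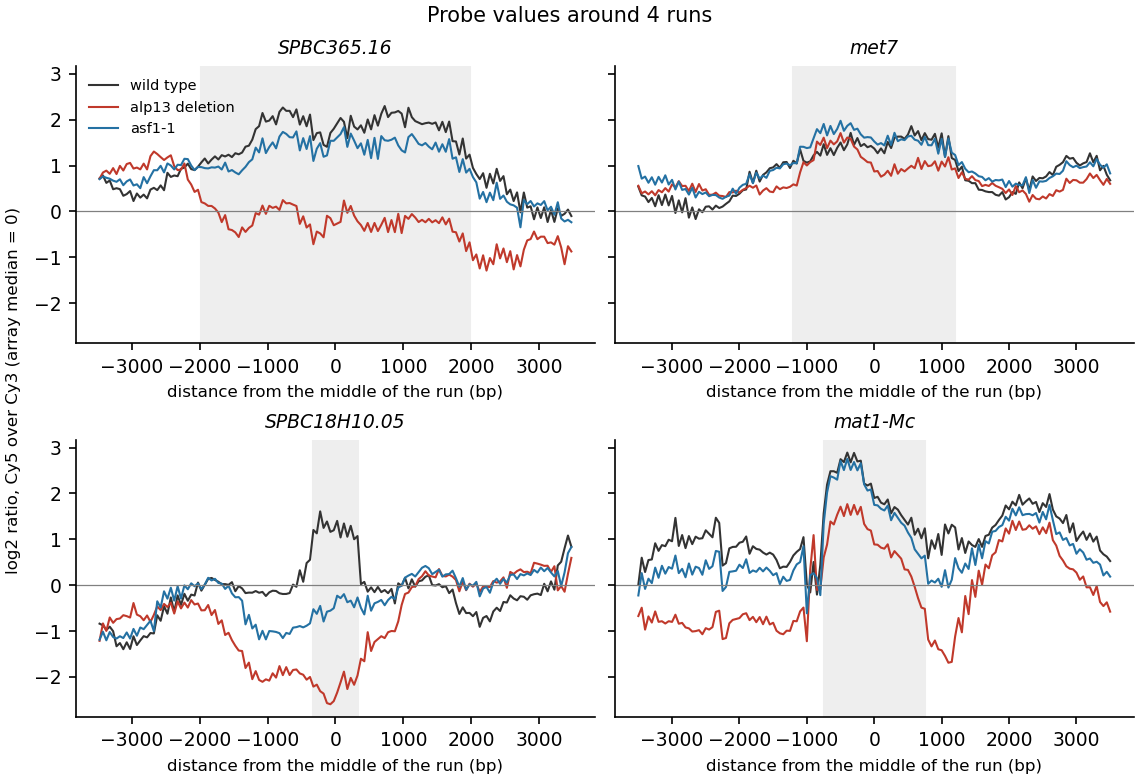
Probe log2 ratios in wild type (dark grey), alp13∆ (red) and asf1-1 (blue) by distance in bp from the middle of 4 runs, with the run shaded. Within the shading, alp13∆ lies below the other strains at every probe at SPBC365.16 and mat1-Mc, all 3 strains are high at met7 (means of 1.11 to 1.57), and alp13∆ has a mean of -2.25 at SPBC18H10.05.

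The gap between the mutants also varied from run to run. It was widest upstream of SPBP4H10.14C (1.96) and fic1, a gene for an anchor of the contractile ring (1.90), then at gfa1 (1.83), SPBC18H10.05 (1.81), the middle rtn1 run (1.68) and qcr1 (1.61). All 6 lay wholly between genes, as did 36 of all 175 runs. Their wild-type Cy3 medians ran from 19.7 to 552, all under the limit of 906 used above. It was smallest at slm9, a gene of the HIR histone chaperone complex, at array bases 3016811 to 3017520, where the means were 1.16 in wild type, 0.54 in alp13∆ and 0.52 in asf1-1. Relative to the array medians, this was the only run in which asf1-1 was not above alp13∆, by -0.02. The next smallest gaps were 0.08 at dni2, 0.12 at any1, 0.17 at pnc1, and 0.29 at both sws1 and wdr7. Wild-type Cy3 medians of the 6 runs with the smallest gaps ran from 1275 to 1812. The part of the Cy3 level in the gap was not tested.

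Runs at listed genes followed the general order of the strains. At mas5 (array bases 1081111 to 1082520) the means were 1.65 in wild type, -0.30 in alp13∆ and 1.11 in asf1-1, and at rpl8 (2046311 to 2047120) 1.43, -0.29 and 0.94. Of 2 runs called after mrpl39, the one that covers the whole gene and the mak5 start (2701911 to 2703920) had 1.47, -0.33 and 0.87, and the one upstream of it (2704061 to 2704920) 1.28, -0.55 and 0.70. Upstream of tif213, the eIF2 gamma subunit gene (2188211 to 2189020), they were 1.24, -0.70 and 0.59. Between pgm1 and tdh1, the latter a glyceraldehyde-3-phosphate dehydrogenase gene, a run (2807011 to 2808720) had 1.76, 0.28 and 0.67, with its middle 1530 bp before the tdh1 start. In each of these 6 runs, asf1-1 stood between alp13∆ and wild type. Of all 175 runs, both mutants were below wild type in 167 and asf1-1 was above alp13∆ in 174. The order is therefore not particular to these genes, and the choice on wild type favours it.

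Of the mating and meiosis genes, mam1, the M-factor transporter gene, had 1.47 in wild type, -0.01 in alp13∆ and 0.73 in asf1-1 (array bases 2601811 to 2603970). At gpa1, the gene for the pheromone-coupled G-protein alpha subunit (2330011 to 2331920), the means were 1.37, 0.20 and 1.20. Inside byr2, the gene for the MAP kinase kinase kinase of the same pathway (1743111 to 1743670), they were 1.21, 0.61 and 1.10, and inside the mug124 annotation (1687011 to 1688020) 1.93, 0.51 and 1.09. The middle of the mug124 run was 1526 bp inside the gene, and the next gene to its right is fba1, which encodes fructose-bisphosphate aldolase.

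The runs next to mat1 gave a measure of error between duplicate probes of the same arrays. The run after mat1-Mc, at array bases 2117411 to 2118970, had means of 1.99 in wild type, 0.88 in alp13∆ and 1.79 in asf1-1, and its near-identical probes on an extra contig gave 1.95, 0.90 and 1.79 (31 pairs). The neighbouring run at SPBC23G7.10C had 1.59, 0.95 and 1.33, and its duplicate 1.56, 0.95 and 1.32 (26 pairs). Over 239 such pairs the SD of 1 probe's asf1-1 minus alp13∆ difference was 0.103. This is the error of probes within the same arrays and not between cultures. Such pairs cannot show the effect of centring, which moved the median run difference from 0.85 to 0.08 when probes between genes were set to 0. Signal from one copy cannot be told apart from that of the other.

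Both channels contributed to the runs, and in wild type the low Cy3 level made up more of the median run than the high Cy5 level. Run probes had a median Cy3 intensity of 1064 in wild type, 1187 in alp13∆ and 1067 in asf1-1, against 1811, 1619 and 1693 for all usable probes. Their median Cy5 intensity was 2805, 1813 and 2458, against 1808, 2101 and 1895. On the log2 scale relative to each array's median, the Cy5 level of the median run was 0.44 in wild type, -0.38 in alp13∆ and 0.08 in asf1-1, and the Cy3 level -0.96, -0.62 and -0.85. Of the 3949 run probes, 3934, 3928 and 3920 were well above background in both channels on the 3 arrays.

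The same rule applied to the mutant arrays gave fewer runs, mostly at wild-type runs in asf1-1 and mostly elsewhere in alp13∆. On the asf1-1 array it found 101 runs, of which 87 (86.1%) overlapped a wild-type run, and these touched 84 of the 175 wild-type runs (48.0%). On the alp13∆ array it found 62 runs, of which 15 (24.2%) overlapped a wild-type run, touching 15 of the 175 (8.57%). Of the probes in the alp13∆ runs 3.58% lay between genes, against 33.2% in the asf1-1 runs and 50.2% in the wild-type runs. Runs chosen on alp13∆ had a median of 1.245 there, 0.75 in asf1-1 and 0.47 in wild type, so that the order of the mutants turned with the array used for choosing.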

How the data were processed

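H3K9ac ChIP-chip was measured on 1 array for each of 3 strains. Per the file headers, Agilent Feature Extraction 10.7.3.1 subtracted the background and normalised the dyes to give the processed intensity in the deposited scanner files. A log10 ratio of Cy5 to Cy3 in the deposited files served to check the direction. The authors' deposited value table holds a score per feature whose scale, centring and direction stayed unknown. Its column medians were 0.114, 0.0849 and -0.0204, and its columns correlated with their own arrays at r = 0.225, 0.528 and -0.58, so it entered no result.

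From the intensities, log2(Cy5/Cy3) was computed and centred on each array's median over 43912 probes, after outlier spots were left out of 43993. The sources used here do not give the array's genome build. Probes were placed on ASM294v3 by a constant offset that gave the highest correlation of GC content with Cy3 signal (-900 bp left of array base 1620061, r = 0.536 against 0.327 for the next best, and -1800 bp from there on, r = 0.529 against 0.331). Coordinates of runs are the array's own and gene coordinates are those of ASM294v3. Placement and run finding were tested on simulated data. Calls use a 1.5-fold difference (0.585 on the log2 scale), with 10-probe blocks of the stretch as background. Annotated protein-coding genes include their UTRs.

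The arrays have no replicates, so no test was made. The runs named are the 8 widest, the 8 highest in wild type, the 6 highest and 6 lowest on each mutant array and in the difference between mutants, and those called after a gene of 8 lists (at most 5 a list). Other runs appear only in the counts of genes with a run at the start, in the flanks of a named run or in the duplicates beside mat1. Promoters were read from the reference sequence and exclude neighbouring transcripts. The runs and lists were chosen with earlier results of these data known. Python 3.11.15, numpy 2.4.6, pandas 2.3.3, R 4.3.3 and limma 3.58.1 were used. Other thresholds, minimum probe numbers, centrings, normexp background correction (offset 50, on spot medians), Cy5 alone, a 2-fold call and runs of higher Cy3 were tried.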

Additional observations from a re-analysis of the deposited data

Results flagged for a closer look

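At 2 named runs the mutants lay on opposite sides of wild type. Of all 175 runs, 8 had an asf1-1 mean above wild type and 0 an alp13∆ mean above it. The side rests on the centring: with probes between genes as 0, these counts were 96 and 86. At met7 the asf1-1 mean was 0.46 above the alp13∆ mean, with asf1-1 above wild type (1.57 against 1.43) and alp13∆ below it (1.11). At bmc1 the gap was 0.41, with asf1-1 at 1.42, wild type at 1.36 and alp13∆ at 1.01. Each strain had 1 array, and the difference was not tested.

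Outside the tiled stretch, the same rule found 5 runs in the wild-type array that enter none of the comparisons. On chromosome III, 2 lay at array bases 34411 to 36170 (wild type 1.32, alp13∆ -0.08, asf1-1 0.91) and 36711 to 37420 (1.19, 0.05 and 0.84), and 1 at array bases 1840150 to 1840859 (1.249, 0.99 and 1.26). The other 2, on the extra contig, are the near-duplicates of the runs beside mat1.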

How the results depend on the processing

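Over 17 alternative settings 9 results were recomputed 106 times, and 78 values kept their direction and moved by less than the SD across runs, the binomial interval or 1.5 times a count. At the stricter of the thresholds there were 99 runs, 62 of them with a start, 96 lower in alp13∆ and 30 lower in asf1-1 than wild type by 1.5-fold, and 70.0% of their probes lay between genes or upstream. With runs chosen after centring on probes between genes there were 65, of which 32 held a start, 24 were lower in alp13∆ and 6 in asf1-1, with 75.8% of probes between genes or upstream, an alp13∆ median of 0.98 and a difference between mutants of 0.26. The original 175 runs with that centring gave an alp13∆ median of 0.94, a difference of 0.078, 30 lower in alp13∆ and 8 in asf1-1. Without centring 25 runs were lower in asf1-1, and with a 2-fold call 9. With normexp 46.8% of run probes lay between genes or upstream. On Cy5 alone the alp13∆ median was -0.38, against 0.16, and the asf1-1 median 0.077. The 102 runs of higher Cy3 held 80 with a start, 87 lower in alp13∆, 12 lower in asf1-1 and 53.0% of probes between genes or upstream. Runs chosen on the alp13∆ array had a median of 1.245 there and turned the difference between mutants to -0.45. The cause of these shifts was not tested, beyond the smaller number of runs at stricter settings. The settings that keep the 175 runs under another centring, use runs of higher Cy3 or choose runs on a mutant array were chosen after seeing the data. The authors' value table was not run as an alternative, because its columns did not follow their own arrays, and normexp used spot medians in place of means. With 1 array a strain, the spread between cultures is unknown, and probes of low Cy3 limit the lowest runs. No paired analysis was possible because each strain has 1 array.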
